A study of Homo sapiens with 12 samples.

Results

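FDX2-deficient ES2 cells kept at 3% O2 were compared with FDX2-deficient ES2 cells kept at 20% O2, across all genes. ES2 is a human ovarian cancer cell line, and FDX2 is a mitochondrial ferredoxin that passes electrons to the assembly of iron-sulfur (Fe-S) clusters. In the FDX2-iKO line used here the endogenous FDX2 gene was knocked out with CRISPR-Cas9 and replaced by an editing-resistant, HA-tagged FDX2 that is transcribed only in the presence of doxycycline (Doxy). Both groups were cultured without Doxy and thus share the knockout, the silent transgene and the Tet regulators. The members are the 6 libraries, of 12 in the series, that the labels place in the groups 20% O2 wo Doxy (3 libraries) and 3% O2 wo Doxy (3 libraries). The other 6 libraries came from cells given Doxy at the same O2 levels and are used for the direct test of whether the response to oxygen depends on Doxy. The line was derived from a single clone, so the replicates are cultures of that clone and carry no variation between clones. By the methods, cells of the 20% O2 group were cultured 6 days at 20% O2, whereas cells of the 3% O2 group spent 4 days at 20% O2 and then 3 days at 3% O2, 7 days in all. A figure legend, by contrast, names 6 days for both groups. Where the additional day applies, oxygen and time cannot be told apart within this comparison, nor in the cells with Doxy.

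Cells sense low oxygen through prolyl hydroxylases that stop marking the hypoxia-inducible factors (HIF) for degradation, after which HIF induces genes of glycolysis, pH control, angiogenesis and mitophagy. Loss of FDX2 starves mitochondrial and cytosolic proteins of Fe-S clusters. Mitochondrial faults of this kind are known to engage the integrated stress response, in which the factor ATF4 induces genes of amino acid synthesis and import, tRNA charging and antioxidant supply. Cells that stop dividing for good become senescent and secrete cytokines, chemokines and proteases, together named the senescence-associated secretory phenotype (SASP).

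Total counts per library were between 28736633 and 29927787 at 20% O2 and between 24958386 and 32435660 at 3% O2. Of 58735 genes in the table, 32966 had a count and 16891 passed the filter on low counts and were tested in one model of all 12 libraries. FDX2 itself (ENSG00000267673, chromosome 19, 10310045 to 10316015, minus strand) was not among them, with 9, 13 and 4 counts at 20% O2 and 7, 7 and 5 at 3% O2. With Doxy its counts were in a similar range, 5, 2 and 6 at 20% O2 and 2, 4 and 12 at 3% O2. Other genes share 70.9% of its exonic bases, so its depletion could not be checked on these counts. The epithelial and ovarian markers EPCAM, KRT19, CDH1, WT1, MUC16 and NAPSA had at most 8 counts in each of the 6 libraries, whereas KRT7, KRT8, KRT18, PAX8 and the mesenchymal VIM were expressed in every one. Of the markers of other cell types, PTPRC, CD68, CD3E and PECAM1 had at most 7 counts per library, whereas the endothelial cadherin gene CDH5 rose from 26.2, 26.9 and 26.2 CPM at 20% O2 to 39.8, 51.4 and 44.041 CPM at 3% O2. The markers KRT8 (0.82), KRT18 (0.42), PAX8 (0.79) and VIM (0.54) also rose, as log2 fold changes. KRT7 (0.24) did not pass the test (adjusted p = 0.12). Of 4 tested mesenchymal markers only VIM was called, and their median log2 fold change was −0.06. The part of such shifts in the results below was not tested.

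Replicate 1 at 3% O2 stood apart from replicates 2 and 3 of its group. Its log2 levels correlated with theirs at 0.958 and 0.953 across genes, against 0.994 between replicates 2 and 3. Genes annotated as antisense held 1.14% of its counts, with a median of 2.50 CPM over 1559 such genes, against medians of 0.55 to 1.06 CPM in the other 11 libraries, as the plot of antisense levels shows. More than a 2-fold excess over the mean of replicates 2 and 3 was seen in 669 of the 1559 antisense genes and in 225 of 12558 protein-coding genes. The median log2 fold change of the antisense genes between 3% and 20% O2 was 0.49 with this library and −0.27 without it. No direction is therefore given for antisense genes as a class, and counts below are also given without this library where they depend on it. In the gene lists described below, leaving it out moved the number of called members by at most 2 in each direction, except in the mitochondrial genome. More than 20% of exonic bases are shared with another gene in VIM, MTHFD2, PLAU, DDIT4, LIPT2, MCM2, TIPIN, AL133346.1, PDK1-AS1 and TMPO-AS1, besides the genes for which a share is printed, and reads of such genes may have been split or lost in counting. Whether counting used strand was not given in the sources used here, so that reads of antisense genes and of their partners cannot be told apart.

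**Figure D1:**
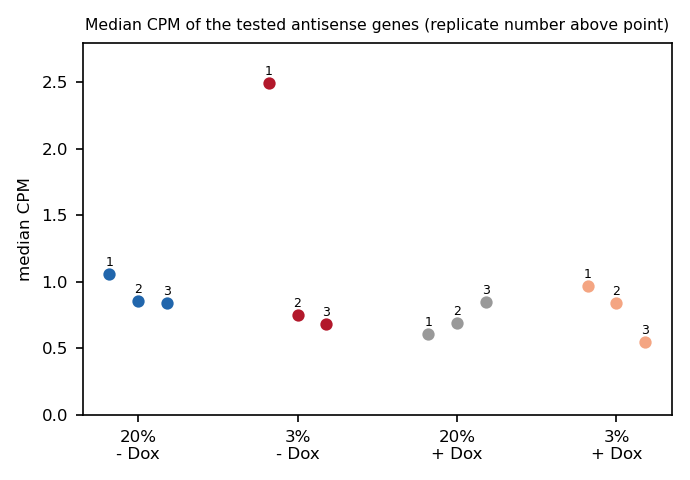
Median CPM of the 1559 tested antisense genes in each of the 12 libraries, by O2 level and Doxy, with replicate numbers above the points. Replicate 1 at 3% O2 without Doxy lies at 2.50 CPM, above the 11 other libraries.

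Levels of 4360 genes differed between 3% and 20% O2 in FDX2-deficient cells (25.8% of those tested, adjusted p under 0.05 in the quasi-likelihood test of edgeR). At 3% O2, 2348 were higher (13.9% of those tested) and 2012 lower (11.9%). Most changes were small, with a median size of 0.43 on the log2 scale, and a change of at least 2-fold was seen in 257 genes that rose (1.52%) and 194 that fell (1.15%). Values of the 3 libraries of one group lay entirely outside those of the other group in 8342 genes (49.4%), with 4631 above (27.4%) and 3711 below at 3% O2. Without replicate 1 at 3% O2, 4232 genes passed (25.1%), 2382 of them higher (14.1%) and 1850 lower (11.0%), and 3631 were called in the same direction with and without it. With the replicate number as a block, the count was 4866 in the 6 libraries alone and 1944 when the block was nested in the Doxy state over all 12 libraries. Leaving out replicate 1, 2 or 3 at 20% O2 lowered it to 2705, 2754 or 2359, and leaving out replicate 2 at 3% O2 to 2622. In the cells with Doxy the same comparison of O2 levels gave 341 called genes (2.02%), 276 higher (1.63%) and 65 lower (0.385%). The difference between both oxygen responses passed its own test in 1231 genes (7.29%), 542 with a more positive (3.21%) and 689 with a more negative response without Doxy (4.08%). With the nested replicate block 105 genes passed this test. That block pairs libraries by replicate number, although deviations of same-numbered libraries with Doxy correlated at −0.69, 0.22 and −0.70.

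Genes induced by HIF rose together. Of 26 glycolysis genes, all of which were tested, 22 rose and 0 fell, with a median log2 fold change of 0.76 against 0.07 for all tested genes. The glucose transporter gene SLC2A1 (ENSG00000117394, chromosome 1, 42925375 to 42959176, minus strand) stood at 62.2, 64.3 and 59.8 CPM at 20% O2 and at 157, 179 and 172 CPM at 3% O2, a log2 fold change of 1.45 ± 0.13 (SE, adjusted p = 2.8e-05). Phosphoglycerate kinase, PGK1 (ENSG00000102144, chromosome X, 77910739 to 78129296, plus strand), had 504, 514 and 499.6 CPM at 20% O2 and 1080.3, 1068 and 1251 CPM at 3% O2 (log2 fold change 1.16 ± 0.068, adjusted p = 2.7e-06). For lactate dehydrogenase A, LDHA, the levels were 1191, 1164 and 1143 CPM and 2559.5, 2156 and 2434 CPM (log2 fold change 1.03 ± 0.068). In each of these genes all 3 libraries at 3% O2 were above all 3 at 20% O2. The steepest rises in the list were in PFKFB4 (log2 fold change 2.11), which sets the level of an activator of phosphofructokinase, in the lactate exporter SLC16A3 (1.89), in ENO2 (1.63) and in ALDOC (1.62). The most abundant members, GAPDH and ENO1, rose from 3213 ± 89.1 to 5017 ± 256 CPM and from 2445 ± 61.9 to 3887 ± 139 CPM (SD, n = 3). All 3 glycogen genes rose, GYS1 by 0.87, PGM1 by 0.76 and GBE1 by 0.33 on the log2 scale. PDK1, a kinase that inhibits mitochondrial pyruvate dehydrogenase, rose by 0.70. SLC2A3, another glucose transporter gene, was at 13.9, 12.8 and 12.3 CPM at 20% O2 and 10.99, 12.3 and 12.1 CPM at 3% O2, and its log2 fold change of −0.14 did not pass the test (adjusted p = 0.22). ALDOA, with 53.5% of exonic bases in common with neighbours, was counted at only 7.23 ± 0.17 CPM at 20% O2 and 10.9 ± 3.5 CPM at 3% O2 and did not pass the test.

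Among 63 other HIF targets, partly taken from the study's own selection, 55 were tested, of which 41 rose and 6 fell (median log2 fold change 0.64). CA9 (ENSG00000107159, chromosome 9, 35673856 to 35681159, plus strand), a cell-surface carbonic anhydrase that exports acid, had the largest log2 fold change of all called genes, from 0.289, 0.253 and 0.195 CPM at 20% O2 to 46.1, 59.2 and 83.8 CPM at 3% O2 (log2 fold change 7.98 ± 0.43, adjusted p = 1.7e-06). Other genes share 38.5% of its exonic bases. The levels at 20% O2 rest on few counts, and the groups lay far apart. PPFIA4, a scaffold protein gene, went from 0.16, 0.221 and 0.455 CPM to 7.65, 7.4999 and 10.3 CPM (log2 fold change 4.91), and MIR210HG, the host transcript of a hypoxia-induced microRNA, from 0.257, 0.695 and 0.39 CPM to 8.49, 8.97 and 10.2 CPM (4.35). TMEM45A had a log2 fold change of 2.45. The mitophagy receptors BNIP3 and BNIP3L rose from 90.6 ± 1.2 to 227 ± 17.6 CPM and from 48.8 ± 0.962 to 87.8 ± 10.1 CPM (SD, n = 3). The oxygen sensor EGLN1, itself a HIF target, rose by 0.74 on the log2 scale, the histone demethylases KDM3A and KDM4B by 0.55 and 0.87, and the collagen-modifying enzymes P4HA1, P4HA2, PLOD1, LOX and LOXL2 by 0.89, 0.73, 0.86, 0.49 and 0.56. Among the members that fell were HMOX1 (−0.77), NDUFA4L2 (−1.12), MXI1 (−0.30), AK3 (−0.30) and KDM5B (−0.18). KDM5B was not called without replicate 1 at 3% O2 (adjusted p = 0.086). Of these genes, HMOX1 is also a target of the antioxidant factor NRF2. VEGFA (ENSG00000112715, chromosome 6, 43770184 to 43786487, plus strand), the main angiogenic HIF target, was at 87.2, 91.4 and 88.9 CPM at 20% O2 and 70.2, 75.8 and 81.2 CPM at 3% O2. The groups did not overlap and the level was lower at 3% O2, but the log2 fold change of −0.24 did not pass the test (adjusted p = 0.10). It passed in a fit of the 6 libraries alone, without and with the replicate block (adjusted p = 0.020 and 0.020), and not with the block over all 12 (adjusted p = 0.20).

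HIF binds the core letters ACGTG or GCGTG. One of them, on either strand, stood in the RefSeq promoter window (250 bases before to 50 bases after the transcription start, GRCh38.p14) of 55 of the 68 tested glycolysis and other HIF target genes that had a window (80.9%). The share was 63.0% over the 11275 of 16891 tested genes that had a window and 48.4% over all 35116 windows. Fewer than 80% of all tested genes had one, so this background is incomplete, here and for the elements below. The same letters stood in 20 of 25 windows of the sterol and fatty acid list (80.0%), in 71.1% of the G2/M windows, in 75.6% of those of the ATF4 list, whose genes mostly fell, and in 62.0% of the 137 windows of genes called at least 2-fold higher. Windows were at hand for 41 of 52 genes of the ATF4 list and for 137 of those 257, under 80% of either group. Stretches of 60 bases are shown for 3 genes that rose, 5′ to 3′ on the strand of the gene, with the matches to these letters on either strand in capitals:
CA9 (chr9:35673868-35673927, plus strand): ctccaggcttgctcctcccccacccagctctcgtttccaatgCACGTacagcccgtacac
PGK1 (chrX:78104037-78104096, plus strand): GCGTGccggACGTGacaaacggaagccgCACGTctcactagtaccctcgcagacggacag
LDHA (chr11:18394462-18394521, plus strand): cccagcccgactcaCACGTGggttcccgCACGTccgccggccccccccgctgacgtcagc
The match in CA9 began 18 bases before the start, while PGK1 held 3 matches in the stretch shown and LDHA 3 matches, of which a pair overlap on opposite strands. A match of 5 bases is common and is no evidence of binding.

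Genes of the integrated stress response fell. Of 53 genes of the ATF4 and amino acid stress list, 52 were tested, and 35 fell and 1 rose, with a median log2 fold change of −0.52. ATF4 itself, which is controlled mainly through its translation, was at 439, 455 and 419 CPM at 20% O2 and 460.3, 406 and 394 CPM at 3% O2, groups that overlapped (log2 fold change −0.06 ± 0.09, adjusted p = 0.65). Other regulators of the response fell. ATF3 (ENSG00000162772, chromosome 1, 212565334 to 212620777, plus strand), a stress-induced repressor, had 9.79, 10.021 and 10.6 CPM at 20% O2 and 2.94, 2.6984 and 2.37 CPM at 3% O2 (log2 fold change −1.93 ± 0.16, adjusted p = 1.9e-05). DDIT3, which encodes the pro-apoptotic factor CHOP, had 44.2, 45.7 and 44.6 CPM and 14.6, 14.2 and 13.6 CPM (log2 fold change −1.67 ± 0.058), although 39.6% of its exonic bases are shared with other genes. NUPR1 (−2.61), CEBPG (−0.92), TRIB3 (−0.88) and SESN2 (−1.39) fell as well. Each of these genes was lower in all 3 libraries at 3% O2 than in any library at 20% O2.

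Effectors of the response fell too. CHAC1 (ENSG00000128965, chromosome 15, 40952962 to 40956519, plus strand), which degrades glutathione, had 11.8, 11.1 and 11.1 CPM at 20% O2 and 3.34, 2.78 and 3.03 CPM at 3% O2, a 3.71-fold decrease (adjusted p = 0.00012). SLC7A11 (ENSG00000151012, chromosome 4, 138164097 to 138242349, minus strand), the cystine importer, had 62.3, 59.969 and 68.3 CPM and 16.4, 17.6 and 19.1 CPM, a 3.58-fold decrease (adjusted p = 4.0e-06). The cystathionine-cleaving enzyme gene CTH had 20.9, 21.3 and 21.8 CPM and 6.84, 6.19 and 7.08 CPM. In all 3 genes the groups lay more than 2-fold apart. Asparagine synthetase, ASNS, had a log2 fold change of −2.29, but 44.6% of its exonic bases are shared and its level was only 5.56 ± 0.743 CPM at 20% O2. The glycine transporter SLC6A9 had a log2 fold change of −2.12 and the serine synthesis enzyme PSAT1 of −0.91. In the one-carbon pathway ALDH1L2 (−1.30) and MTHFD2 (−0.69) fell, whereas PHGDH (−0.26) and SHMT2 (−0.12) did not pass the test. Both passed in a fit of the 6 libraries alone (adjusted p = 0.0054 and 0.019), with the replicate block there as well, and not with the block over all 12 libraries (adjusted p = 0.16 and 0.29). All 13 genes of tRNA charging and export fell (13 of 13, also without replicate 1 at 3% O2), between −0.29 for IARS1 and −0.92 for WARS1 on the log2 scale. Alanyl-tRNA synthetase, AARS1, had 449.8, 463 and 432 CPM at 20% O2 and 258, 247 and 237 CPM at 3% O2. ALDH18A1, a proline synthesis enzyme, was the single member that rose (0.46). The abundant glutamine transporter SLC38A2, at 483 ± 13.2 and 441 ± 20 CPM (SD, n = 3), had an adjusted p of 0.20, and of 0.045 in the 6 libraries alone.

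The composite element through which ATF4 and its C/EBP partners act has the letters TGATGNAA. It stood in 11 of the 41 windows found for the 52 tested members (26.8%), in 1.82% of the windows of all tested genes and in 3.62% of all windows. Fewer than 80% of the members had a window, so the comparison of shares is void, and the windows are shown only as sequence. Counting the 250 bases before the start alone gave 6 windows (14.6%). In 60-base stretches of 3 genes that fell, with the match in capitals, the element read forward in ASNS and on the opposite strand in CHAC1 and AARS1:
CHAC1 (chr15:40953236-40953295, plus strand): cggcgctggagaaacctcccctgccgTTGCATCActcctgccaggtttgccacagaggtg
ASNS (chr7:97872443-97872502, minus strand): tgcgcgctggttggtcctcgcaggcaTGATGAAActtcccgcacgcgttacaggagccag
AARS1 (chr16:70289660-70289719, minus strand): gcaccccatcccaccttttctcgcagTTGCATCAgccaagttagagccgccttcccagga

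Genes of the ER unfolded protein response split. Of 18 tested genes 7 rose and 5 fell, with a median of 0.02. XBP1, the transcription factor of one branch, fell from 103 ± 1.86 to 60.1 ± 1.93 CPM (SD, n = 3), and HERPUD1 (−0.55) and DNAJB9 (−0.63) fell with it. The chaperone cofactor SDF2L1 (0.77) and the abundant calreticulin gene CALR (0.26) rose. The main ER chaperone HSPA5 was at 736, 738 and 726 CPM at 20% O2 and 754, 678 and 669.7 CPM at 3% O2 and did not pass the test (adjusted p = 0.31). Of 15 genes of mitochondrial chaperones, proteases and stress signalling, 3 rose, HSPD1 (0.34), CLPP (0.40) and AFG3L2 (0.20), and 0 fell, against 13.9% of all tested genes called higher.

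**Figure D2:**
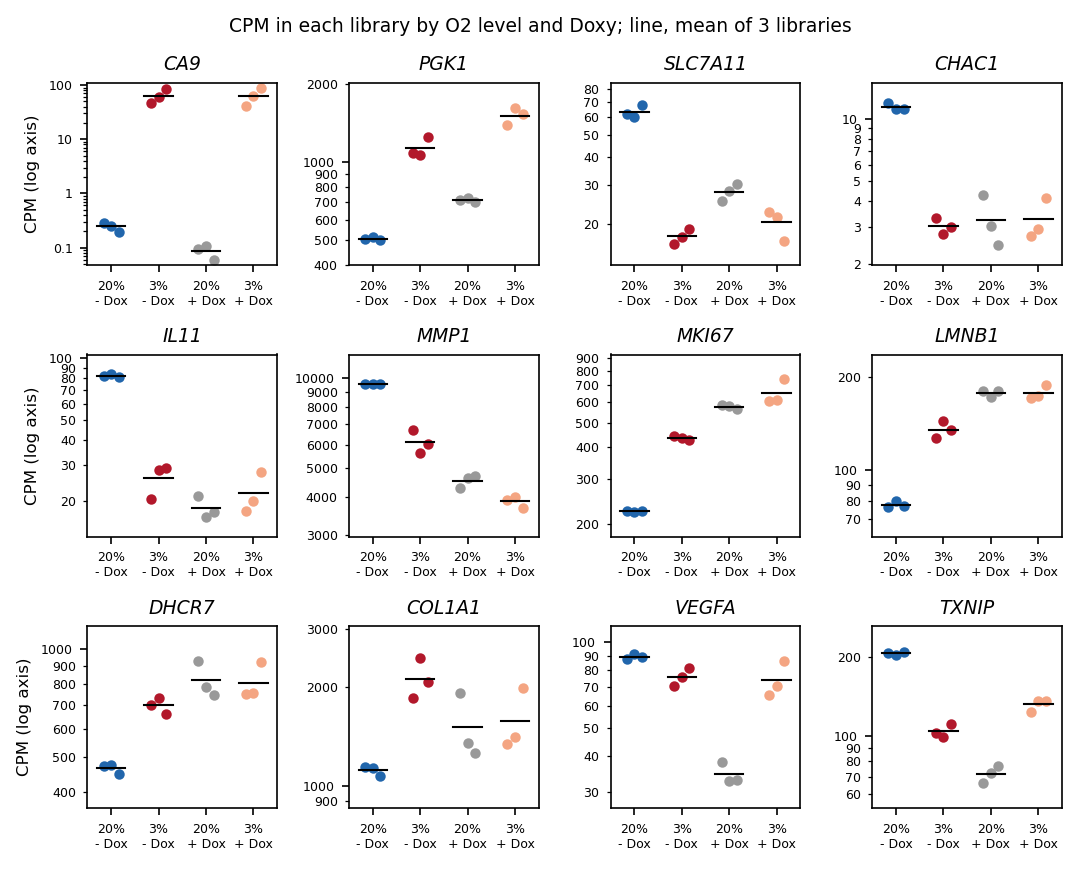
CPM of 12 genes in each library on a log axis, by O2 level and Doxy (- Dox, without; + Dox, with), with a line at the mean of 3 libraries. CA9 and PGK1 are higher at 3% O2 in both Doxy states. Without Doxy, CHAC1 and IL11 are lower and MKI67 is higher in all 3 libraries at 3% O2 than in the 3 at 20% O2.

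Transcripts of many secreted senescence factors fell at 3% O2. The SASP list includes the factors that the study selected from these libraries, so its direction is not independent evidence. Of 44 members 35 were tested, and 17 fell and 5 rose (median −0.34), or 15 and 5 without replicate 1 at 3% O2. Of its cytokines and growth factors 9 of 11 fell, and of its chemokines 3 of 7. IL11 (ENSG00000095752, chromosome 19, 55364389 to 55370463, minus strand), a cytokine of the IL-6 family, had 81.7, 83.4 and 81.2 CPM at 20% O2 and 20.6, 28.4 and 29.2 CPM at 3% O2 (log2 fold change −1.65 ± 0.17, adjusted p = 7.9e-05). IL1A and IL1B, the interleukins that start the secretory programme in many senescent cells, had log2 fold changes of −2.02 and −1.03. GDF15, a cytokine that reports mitochondrial stress, had 8.92, 8.09 and 9.49 CPM at 20% O2 and 2.01, 2.3016 and 2.03 CPM at 3% O2 (log2 fold change −2.06 ± 0.23). Groups did not overlap in any of these genes. The activin subunit gene INHBA (−0.79) and the genes of the growth factor receptor ligands EREG (−0.96) and AREG (−0.75) fell. LIF (−0.34) was no longer called without replicate 1 at 3% O2 (adjusted p = 0.080). IL6, with a mean of 0.568 CPM at 20% O2, did not pass the test.

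Chemokines and proteases moved unevenly. CXCL8 (ENSG00000169429, chromosome 4, 73740506 to 73743716, plus strand), which attracts neutrophils, had 291, 294 and 314 CPM at 20% O2 and 100.3, 99.2 and 112 CPM at 3% O2 (log2 fold change −1.53 ± 0.095, adjusted p = 4.7e-06), whereas the more abundant CXCL5 stood at 1424, 1439.6 and 1529 CPM and 1469.5, 1585 and 1664 CPM, overlapping groups. MMP1, the collagenase with the highest level in the list, went from 9556, 9589 and 9543 CPM to 6697, 5615 and 6009 CPM (log2 fold change −0.65 ± 0.061), and the stromelysin gene MMP3 also fell (−1.27). The plasminogen activator PLAU and its receptor gene PLAUR rose by 0.33 and 0.41, while the protease inhibitor gene SERPINB2 (−0.54) fell. IGFBP3, IGFBP4 and IGFBP6, which bind insulin-like growth factors, rose by 1.84, 0.83 and 0.77. IGFBP3 is also a HIF target. Of 15 NF-kB targets 5 fell, TRAF1 (−1.64), BIRC3 (−1.24), TNFAIP3 (−0.58), CYLD (−0.43) and NFKBIZ (−0.24), and 0 rose. NFKBIZ was not called without replicate 1 at 3% O2 (adjusted p = 0.093). Among 20 tested interferon-induced genes 3 fell, among them IFIT3 (−0.33) and IFI35 (−0.62), and among 13 antigen presentation genes HLA-B (−0.54) and B2M (−0.28) fell, with 0 higher in either list. B2M was not called without replicate 1 at 3% O2 (adjusted p = 0.056). Both counts lie near the share of all genes called lower (11.9%). In the 6 libraries alone with the replicate block, 8 NF-kB targets, 5 interferon-induced and 4 antigen presentation genes were lower.

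Genes of cell division were higher at 3% O2. Of 54 G2/M genes, all tested, 44 rose and 0 fell, with a median log2 fold change of 0.48. MKI67 (ENSG00000148773, chromosome 10, 128096659 to 128126385, minus strand), the standard marker of proliferating cells, stood at 224, 222 and 225 CPM at 20% O2 and 445, 434 and 428 CPM at 3% O2 (log2 fold change 0.96 ± 0.068, adjusted p = 8.2e-06). TOP2A, which untangles sister chromatids, had 400.2, 402 and 406 CPM and 585, 571 and 609 CPM. TACC3, a spindle protein gene, had 417, 403 and 391 CPM and 652, 884 and 760.2 CPM. No library at 20% O2 reached the lowest 3% O2 library in these 3 genes. GTSE1 and PSRC1 rose by 0.86 and 0.88, the survivin gene BIRC5 by 0.69, the mitotic kinases BUB1, AURKA and AURKB by 0.67, 0.55 and 0.62, and the anaphase activator CDC20 by 0.67 on the log2 scale. In bulk RNA a larger share of dividing cells and more RNA per dividing cell cannot be told apart.

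S-phase genes rose in part. Of 42 tested members 12 rose and 2 fell (median 0.10), the latter DTL (−0.20) and TIPIN (−0.49). With an offset for GC content and the replicate block in the 6 libraries, 19 were higher and 1 lower, and with the block alone 10 and 4. In the list of replication licensing and fork genes 16 of 33 rose and 0 fell, among them LIG1 (0.73), TK1 (0.56), FEN1 (0.51), MCM2 (0.49), MCM7 (0.30) and PCNA (0.27), whereas the abundant helicase gene MCM4 was at 319.9 ± 3.39 and 335 ± 3.79 CPM (SD, n = 3) and did not pass the test. All 5 genes of the nuclear lamina and HMGB proteins rose. LMNB1 (ENSG00000113368, chromosome 5, 126776623 to 126837020, plus strand), whose loss marks senescent nuclei, had 76.6, 79.7 and 77.1 CPM at 20% O2 and 127, 144 and 135 CPM at 3% O2 (log2 fold change 0.80 ± 0.059, adjusted p = 1.1e-05). LMNB2, LMNA, HMGB1 and HMGB2 rose by 0.47, 0.63, 0.40 and 0.51. Of the CDK inhibitor genes CDKN2C rose (0.84) and CDKN2B fell (−0.44), and CDKN2A, at 193, 194 and 180.4 CPM and 229.9, 248 and 225 CPM, had an adjusted p of 0.047 with and 0.064 without replicate 1 at 3% O2. Among 22 tested p53 targets 7 fell, led by SESN2, GADD45A (−1.20) and TP53INP1 (−0.90), and 3 rose, PHLDA3 (0.50), DDB2 (0.37) and PLK2 (0.26). The median of these 22 was −0.06, and of all tested genes 11.9% were called lower and 13.9% higher. SESN2 is also a member of the ATF4 list.

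Promoters of G2/M genes often carry the cell cycle homology region, TTTGAA. These letters, on either strand, stood in 32 of the 45 windows found for the 54 members (71.1%), in 10.04% of the windows of all tested genes and in 15.16% of all windows. They stood in 8.76% of the windows of genes called at least 2-fold higher. Among genes called at least 2-fold lower the share was 21.85%. Windows were at hand for 137 of 257 and 119 of 194 of these genes, so both shares are incomplete. Whether the element is linked to the rise at 3% O2 was not tested. In the 250 bases before the start alone the shares were 55.6% for the members and 8.60% for all tested genes. Stretches of 3 promoters that carry it close to the start are shown, with the matches in capitals:
MKI67 (chr10:128126424-128126483, minus strand): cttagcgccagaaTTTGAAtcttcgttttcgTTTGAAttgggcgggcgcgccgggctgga
HMMR (chr5:163460572-163460631, plus strand): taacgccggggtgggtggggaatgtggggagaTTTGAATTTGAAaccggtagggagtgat
CCNB2 (chr15:59105086-59105145, plus strand): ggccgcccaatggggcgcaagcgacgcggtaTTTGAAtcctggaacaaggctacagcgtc
HMMR and CCNB2, a hyaluronan receptor that also acts at the spindle and a mitotic cyclin, rose by 0.63 and 0.45 on the log2 scale. The nearest match began 29 bases before the start in MKI67 and CCNB2 and 22 bases before it in HMMR.

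**Figure D3:**
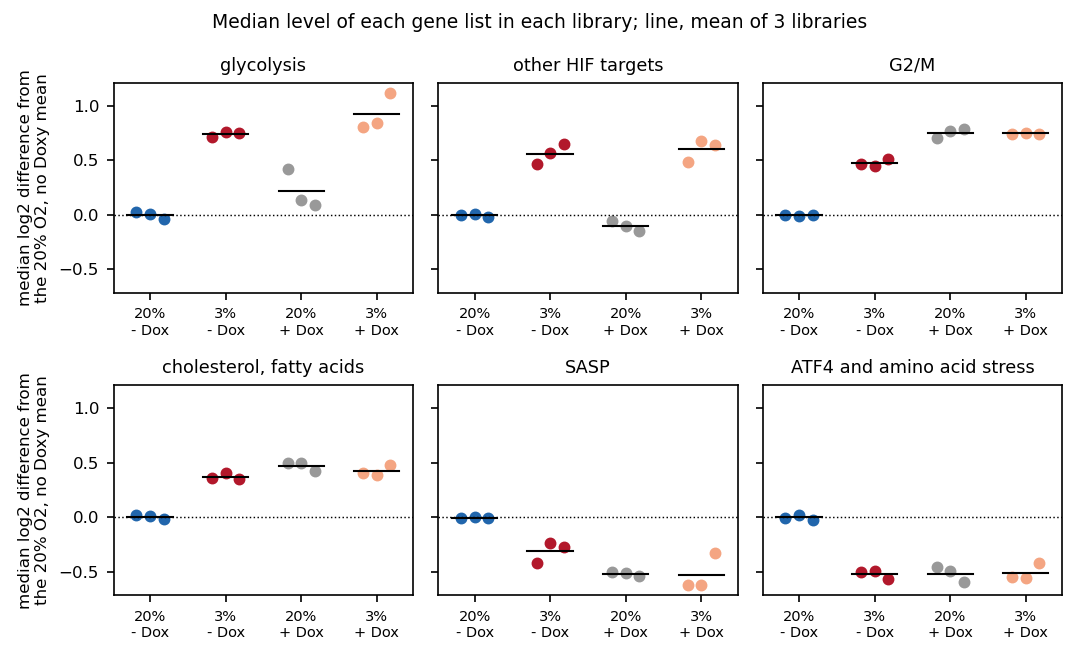
Median over the tested members of 6 gene lists of the log2 difference from the mean of the 3 libraries at 20% O2 without Doxy, in each library. At 3% O2 without Doxy the ATF4 list lies between −0.56 and −0.50, within the range of the libraries with Doxy (−0.60 to −0.42), and the G2/M list between 0.45 and 0.51, below the libraries with Doxy (0.70 to 0.79).

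Sterol and fatty acid synthesis genes were also higher. Of 31 tested genes 22 rose and 0 fell (median 0.34), 17 of 22 in the cholesterol branch and 5 of 9 in the fatty acid branch. DHCR7 (ENSG00000172893, chromosome 11, 71428193 to 71452868, minus strand), an enzyme of the last steps of cholesterol synthesis, had 472, 474 and 449 CPM at 20% O2 and 700.2, 731 and 659.9 CPM at 3% O2 (log2 fold change 0.58 ± 0.095, adjusted p = 0.0015). The groups did not overlap. SQLE, which oxidises squalene, rose by 0.51. Fatty acid synthase, FASN, had 664, 651 and 624 CPM and 887, 1418 and 1083 CPM, which is a wide spread at 3% O2 (log2 fold change 0.80 ± 0.24, adjusted p = 0.032), and the desaturases FADS2 and SCD rose by 0.76 and 0.48. The regulator SREBF2 rose by 0.52. The sterol regulatory element TCACNCCAC was found in 1 of 25 windows of the list (4.00%), that of SREBF2 itself, and in 1.05% of the windows of all tested genes.

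Collagen and matrix genes rose in part. Of 20 tested genes 11 rose and 0 fell (median 0.55, or 0.29 with an offset for GC content). COL1A1 had 1141, 1134 and 1069 CPM at 20% O2 and 1844, 2447 and 2066 CPM at 3% O2 (log2 fold change 0.93 ± 0.18, adjusted p = 0.0039), and TGFBI, a matrix protein gene, had 215, 221 and 210.0 CPM and 392, 405 and 433 CPM. The groups did not overlap in either gene. COL1A2, the partner chain of type I collagen, was called as well but lay below 1 CPM in every library (0.128, 0.19 and 0.13 CPM and 0.523, 0.754 and 0.717 CPM). COL5A1 (1.02) had an adjusted p of 0.017, or 0.056 in the 6 libraries alone and 0.051 there with the replicate block. COL6A3 rose by 0.85, whereas fibronectin, FN1, was at 851 ± 4.48 and 806 ± 5.12 CPM (SD, n = 3) and did not pass the test.

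Antioxidant genes fell in part. Of 24 tested NRF2 targets 13 fell and 0 rose (median −0.38), and SLC7A11 and the ferritin genes belong to other lists as well. NQO1 (ENSG00000181019, chromosome 16, 69706996 to 69726951, minus strand), a quinone reductase, had 235, 239 and 237 CPM at 20% O2 and 119, 119 and 121 CPM at 3% O2 (log2 fold change −0.99 ± 0.04, adjusted p = 2.7e-07). Thioredoxin reductase, TXNRD1, had 1025, 1029 and 997 CPM and 669, 621 and 636 CPM (log2 fold change −0.66 ± 0.05). The groups lay apart in both. Heme oxygenase, HMOX1 (−0.77), the reductase AKR1C1 (−1.03) and the subunits of glutamate-cysteine ligase, GCLC (−0.28) and GCLM (−0.40), fell. Of 12 genes linked to ferroptosis, not all of them protective, 2 fell, SLC7A11 and GCH1 (−0.67), and DHODH rose (0.35). Their median was 0.04, and of all tested genes 11.9% were called lower and 13.9% higher. GPX1 and ACSL4, the most abundant of the 12, were at 213 ± 3.93 and 244 ± 12.4 CPM and at 333 ± 13.1 and 322 ± 10.6 CPM (SD, n = 3).

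Genes of iron and of Fe-S clusters, the process that FDX2 serves, showed no common direction. Of 16 tested genes of the iron-handling list 2 rose, the transferrin receptor gene TFRC (0.28) and POLR2A (0.49). The latter encodes a subunit of RNA polymerase II and is not itself a gene of iron handling. The 3 that fell were HMOX1, SLC39A14 (−0.32) and the ferritin heavy chain gene FTH1 (−0.49, 62.4% of exonic bases shared). The ferritin light chain gene FTL, at 1221, 1248 and 1143 CPM and 861, 1062 and 1028 CPM, did not pass the test (adjusted p = 0.083), and passed in the 6 libraries alone (adjusted p = 0.031). There, with the replicate block, 3 genes of the iron-handling list were higher and 6 lower. Of 31 tested Fe-S assembly genes 5 rose and 4 fell, with a median of −0.01, near the shares of all tested genes (13.9% and 11.9%). In the 6 libraries alone with the replicate block 3 were higher and 8 lower. The scaffold ISCU went from 50.995 ± 1.49 to 39.8 ± 4.85 CPM (−0.36 on the log2 scale), the carrier GLRX5 rose by 0.51 and the cytosolic targeting factor MMS19 by 0.32. LIPT2 (0.68) was not called in the 6 libraries alone (adjusted p = 0.050, and 0.10 with the replicate block). Of 43 genes for Fe-S proteins 8 rose and 4 fell. Without replicate 1 at 3% O2 the counts were 8 and 6, and in the 6 libraries alone with the replicate block 9 and 6. Of the 8 that rose with all libraries, 5 belong to the 11 of DNA replication and repair, among them POLD1 (0.70) and NTHL1 (0.69). The other called increases were in UQCRFS1 (0.23), the kinesin KIF4A (0.57) and XDH, xanthine dehydrogenase, which had 16.047, 15.1 and 15.4 CPM at 20% O2 and 32.6, 39.3 and 35.2 CPM at 3% O2 (log2 fold change 1.20 ± 0.087, adjusted p = 1.0e-05).

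Few respiratory genes were called. Of 73 nuclear genes of the respiratory chain 8 rose and 5 fell (median −0.01), against 13.9% and 11.9% of all tested genes. In the 6 libraries alone with the replicate block, 7 were higher and 13 lower. The largest called changes were in ATP5F1D (0.66), SDHA (0.43), NDUFB7 (0.38) and NDUFB10 (0.35). With an offset for GC content and the replicate block, the NDUFB7 value was −0.00389 over all 12 libraries. Within complex II, SDHA rose while SDHB (−0.27) and SDHC (−0.28) fell. Of 24 TCA cycle genes 2 rose, SDHA and OGDH (0.46), and 2 fell, SDHB and SDHC. The 13 protein-coding genes of the mitochondrial genome gave 2 rises and 1 fall with all libraries, 0 and 4 without replicate 1 at 3% O2, and 0 and 2 in the 6 libraries alone with the replicate block. MT-ND5, at 826, 823 and 807 CPM and 1574, 961 and 1005 CPM, was one of those that lost their call (adjusted p = 0.095, and 0.073 in the 6 libraries alone). MT-ND2 was lower both with it (−0.44) and without it (−0.61).

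Called lysosomal genes were mostly lower, and nucleolar genes moved in both directions. Over all tested genes 13.9% were called higher and 11.9% lower. The 3 falls among ribosome biogenesis genes lay near the latter share. Of 28 lysosomal genes 8 fell and 1 rose, with the cysteine protease gene CTSS (−0.94), NPC2 (−0.47), HEXA (−0.44) and ASAH1 (−0.43) the largest decreases and PSAP, at 558 ± 22.8 and 459 ± 29.7 CPM (SD, n = 3), the most abundant member that fell. Of 29 ribosome biogenesis genes 7 rose, among them NOP56 (0.43) and the abundant NCL (0.37) and NPM1 (0.31), and 3 fell, among them RRN3 (−0.35), or 8 and 6 in the 6 libraries alone with the replicate block. Of 6 genes of glucose sensing, TXNIP and ARRDC4, a pair of arrestin-like proteins, fell (−0.98 and −0.80) and MLX rose by 0.27, and 3 were higher and 3 lower in the 6 libraries alone with the replicate block. Of 5 tested metallothionein and zinc export genes SLC30A1 fell (−0.35), a call that was lost without replicate 1 at 3% O2 (adjusted p = 0.058).

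The 15 largest increases, taken where the groups did not overlap and levels averaged 5 CPM or more, included several genes that no list held. They were PLCH2, a phospholipase C (2.30), TCAF2, a partner of cold-sensing channels (2.12), ZP1, an egg coat glycoprotein (1.78), SPAG4 (1.56), the caveolar protein gene CAVIN3 (1.53, 33.3% of exonic bases shared), the hormone gene AMH (1.51) and the antisense transcripts PDK1-AS1 (2.20) and GAS6-AS1 (1.93). Both antisense genes were also called without replicate 1 at 3% O2, with log2 fold changes of 2.00 and 1.67. AMH rose from 4.65, 4.36 and 3.48 CPM to 7.53, 15.2 and 12.9 CPM, and its spread at 3% O2 was wide. Among the 15 largest decreases, those outside the lists were SPX, a peptide hormone gene (−2.12), PAPPA2, a protease that cleaves IGF-binding proteins (−1.77), SAT1, the rate-limiting enzyme of polyamine catabolism (−1.62), BEX2 (−1.52), the monocarboxylate carrier SLC16A6 (−1.44) and KLHL24 (−1.35). PAPPA2 had 71.6, 72.6 and 73.7 CPM at 20% O2 and 20.6, 21.9 and 21.6 CPM at 3% O2, and SAT1 had 30.4, 32.6 and 32.2 CPM and 10.4, 9.96 and 10.5 CPM. Neither pair of groups overlapped.

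Whether these responses to oxygen depend on Doxy was tested as the difference between both oxygen responses, which share no library. No group received Doxy without the FDX2 transgene, so the drug and the transgene cannot be told apart. Glycolysis genes responded in both states, with a median of 0.76 without and 0.66 with Doxy, and only 2 of 26 differed, SLC2A3 (−0.85, adjusted p = 0.0019) and PDK1 (−0.44). For CA9 the log2 fold changes were 7.98 and 9.46, and the difference did not pass the test (adjusted p = 0.46). Among other HIF targets the response was less positive without Doxy in 14 of 55 and more positive in 3, against 4.08% and 3.21% of all tested genes. Among the former were DDIT4 (−1.74), VEGFA (−1.33), STC1 (−1.28), VLDLR (−0.998) and BNIP3L (−0.66). VEGFA stood at 38.1, 32.8 and 32.9 CPM at 20% O2 and 65.6, 70.6 and 85.993 CPM at 3% O2 with Doxy. It thus rose with Doxy (log2 fold change 1.10, adjusted p = 0.00012), whereas without Doxy its level was lower at 3% O2 as given above. At 20% O2, however, every library without Doxy lay above every library with Doxy. At 3% O2 the levels of both states overlapped. VEGFA levels with and without Doxy were not tested against each other. The paper reports SLC2A3 and VEGFA among HIF targets already raised in FDX2-deficient cells under ambient oxygen.

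The decline of integrated stress response genes was larger without Doxy. In the ATF4 list 31 of 52 genes responded more negatively without Doxy, against 4.08% of all tested genes, and the median with Doxy was −0.02. CHAC1 was at 4.28, 3.04 and 2.47 CPM at 20% O2 and 2.72, 2.94 and 4.17 CPM at 3% O2 with Doxy, levels that overlap those at 3% O2 without Doxy, and its responses differed by −1.90 ± 0.29 (SE, adjusted p = 0.0035). The same held for 12 of 35 SASP genes, among them IL1A (−2.30), IL11 (−1.89) and MMP3 (−0.88). In the G2/M list 36 of 54 genes responded more positively without Doxy, against 3.21% of all tested genes, and the median with Doxy was −0.02. MKI67 was at 585, 581 and 568 CPM at 20% O2 and 607, 616 and 742 CPM at 3% O2 with Doxy, above all 3 libraries at 3% O2 without Doxy. LMNB1 (0.80) and 12 of 31 sterol and fatty acid genes, among them DHCR7 (0.60), differed in the same direction. Levels with Doxy and at 3% O2 without Doxy are set side by side here and were not tested against each other.

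The largest differences of all, by the same rule on levels and overlap, were more negative without Doxy in PAPPA2 (−2.04), CHAC1, IL11, TXNIP (−1.86) and SULT1C2 (−1.84), a sulfotransferase. TXNIP rose at 3% O2 with Doxy (0.87) and fell without it. The largest positive differences were in CAVIN3 (1.19), LRRC45 (1.13), a centrosomal linker gene, and the antisense genes GAS6-AS1 (1.35), TMPO-AS1 (1.12) and AL133346.1 (1.65). Without replicate 1 at 3% O2, in which antisense genes were high, these antisense differences were 1.09, 0.86 and 1.42, and all 3 passed. Leaving out replicate 3 of the cells with Doxy at 3% O2, which stood apart from its group (correlations of 0.979 and 0.984), raised the number of called differences from 1231 to 2246, and leaving out replicate 3 at 20% O2 without Doxy lowered it to 521. Replicate 1 of the cells with Doxy at 20% O2 correlated with replicates 2 and 3 at 0.991 and 0.984. Leaving it out gave 1062 called differences, and 427 called genes in the response with Doxy.

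**Figure D4:**
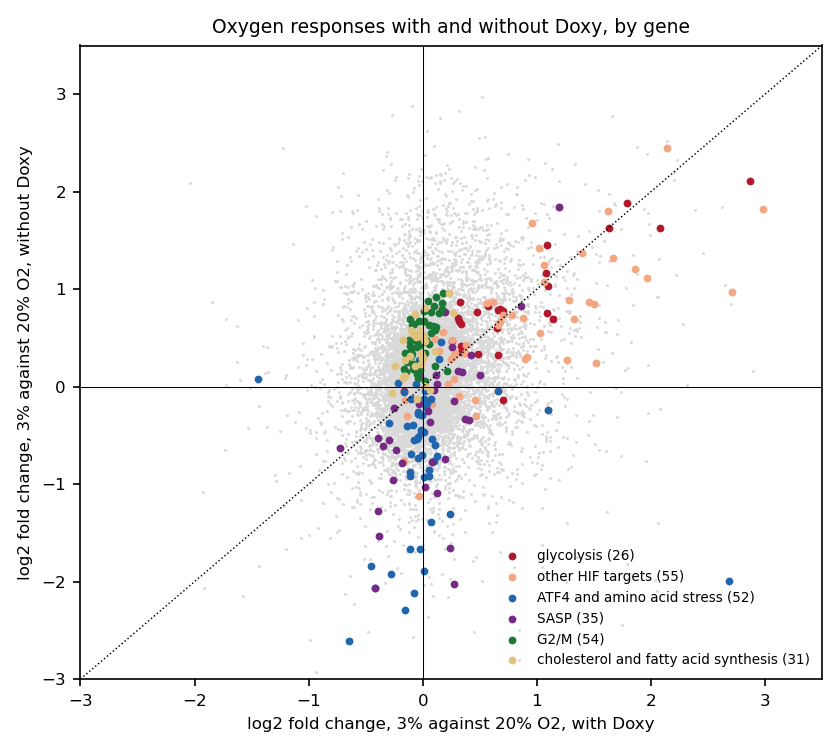
Log2 fold change at 3% against 20% O2 with Doxy (horizontal) and without Doxy (vertical) for each tested gene (grey) and the members of 6 lists, with a dotted line of equality. Glycolysis genes lie along the line, most ATF4 genes lie below 0 and G2/M genes above 0 on the vertical axis near 0 on the horizontal one, and 3 list genes (CA9, PPFIA4 and MIR210HG) and 15 others lie outside the axes.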

How the data were processed

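RNA-seq was measured in 12 libraries of FDX2-iKO ES2 cells, 3 for each O2 level and Doxy state. The authors deposited raw read counts per gene for all libraries. According to the methods and the submitters' processing notes, reads were aligned to GRCh38 with STAR and counted with featureCounts on GENCODE 29, with DESeq2 applied afterwards, and the versions and the strand setting were not given in the sources used here. Counts enter here as deposited. Genes were kept by filterByExpr of edgeR 4.0.16 (R 4.3.3) with a minimum count of 10 and a minimum total of 15, which left 16891, and scaled by TMM. One quasi-likelihood model with 4 groups (8 residual degrees of freedom) gave the response to oxygen without Doxy, that with Doxy and their difference, with Benjamini-Hochberg adjustment over all genes tested and a threshold of 0.05. CPM values are TMM-scaled. Alternatives were DESeq2 1.42.0, its size factors, other filters, the 6 libraries alone, a replicate block, a GC offset, and leaving out each library. The GC offset with the block in 6 libraries, and list counts without replicate 1 at 3% O2, were chosen after seeing the data. Deviations of same-numbered libraries at 20% and 3% O2 from their group means correlated at 0.563, 0.231 and 0.387 without Doxy. With Doxy these correlations were −0.69, 0.22 and −0.70. Differently numbered pairs ran from −0.560 to 0.246 without Doxy and from −0.571 to 0.749 with Doxy. Whether the replicate number marks paired cultures was not tested.

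Named genes were the 15 largest changes in each direction, the 5 largest differences in each direction, with at least 5 CPM and no overlap, and in each list the 4 largest called changes and the 2 most abundant members, with other members where a statement turns on them. The members and gene lists were chosen with earlier results of these data known, and lists are described by counts and medians. Replicates are cultures of a single clone, so p-values measure only the spread between these samples. No pair of replicates agreed within sampling noise. Promoter windows came from RefSeq (GRCh38.p14), taking the window nearest to the annotated start. Scripts were tested on simulated data. Total counts of 24958386 to 32435660 in the 6 libraries limit precision for genes of low count, and counting intervals would cover counting error only. Some genes that the rule or the lists include are not reported here.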

Additional observations from a re-analysis of the deposited data

Results flagged for a closer look

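The oxygen response differed with the Doxy state in 1231 genes by the edgeR test of the difference itself. Each value given here is the log2 fold change at 3% against 20% O2 without Doxy minus that with Doxy, from 3 libraries in each of the 4 groups, for a named gene whose difference passed. Such genes number 108, 66 with a negative and 42 with a positive value. In the ATF4 and amino acid stress list the difference was negative in ASNS (−2.13), SLC6A9 (−2.04), NUPR1 (−1.97), CHAC1 (−1.90), ATF3 (−1.65), DDIT3 (−1.64), GDF15 (−1.64), CTH (−1.56), ALDH1L2 (−1.54), SESN2 (−1.46), SLC7A11 (−1.39), VEGFA (−1.33), WARS1 (−0.97), CEBPG (−0.93), AARS1 (−0.92), PSAT1 (−0.80), MTHFD2 (−0.59) and IARS1 (−0.25), and positive in ALDH18A1 (0.29). Among other SASP genes it was negative in IL1A (−2.30), IL11 (−1.89), CXCL8 (−1.15), IL1B (−1.05), MMP3 (−0.88), LIF (−0.75), EREG (−0.70), INHBA (−0.60) and MMP1 (−0.42), and positive in the IGF-binding protein gene IGFBP3 (0.65).

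Among glycolysis genes and other HIF targets it was negative in SLC2A3 (−0.85), PDK1 (−0.44), DDIT4 (−1.74), STC1 (−1.28), VLDLR (−1.0), MXI1 (−0.77), BNIP3L (−0.66), TFRC (−0.61), KDM3A (−0.48) and P4HA1 (−0.40), and positive in LOX (0.39). Positive differences in the cell division, replication and nuclear lamina lists were those of CCNB2 (0.46), TOP2A (0.48), AURKB (0.52), HMGB2 (0.53), HMMR (0.54), AURKA (0.58), BUB1 (0.66), GTSE1 (0.68), CDC20 (0.71), MKI67 (0.78), BIRC5 (0.80), PSRC1 (0.83), PCNA (0.38), MCM7 (0.40), FEN1 (0.49), TK1 (0.59), LMNB1 (0.80) and CDKN2C (0.81), and the CDK inhibitor gene CDKN2B (−0.61) was negative. Sterol and fatty acid genes with a positive difference were SCD (0.47), SQLE (0.53) and DHCR7 (0.60).

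The ER and mitochondrial stress lists held XBP1 (−0.83), DNAJB9 (−0.65), HERPUD1 (−0.62), HSPD1 (0.35) and SDF2L1 (0.98). NF-kB, interferon and antigen genes were negative in TNFAIP3 (−0.92), BIRC3 (−0.87), IFIT3 (−0.67), HLA-B (−0.53) and CYLD (−0.33). For iron, Fe-S clusters, respiration and antioxidant defence the values were those of FTL (−0.63), GCH1 (−0.59), NQO1 (−0.54), UQCRFS1 (0.33), SDHA (0.39), GLRX5 (0.52), KIF4A (0.53), XDH (0.54) and NTHL1 (0.82). Lists of p53 targets, the lysosome, ribosome biogenesis, matrix and glucose sensing held TXNIP (−1.86), ARRDC4 (−1.38), CTSS (−1.27), TP53INP1 (−1.22), GADD45A (−1.08), NPC2 (−0.54), HEXA (−0.52), ASAH1 (−0.45), PSAP (−0.44), RRN3 (−0.39), NCL (0.37), PLK2 (0.39), NPM1 (0.42), NOP56 (0.47) and COL1A2 (2.37). Outside the lists the difference was found in PAPPA2 (−2.04), SULT1C2 (−1.84), BEX2 (−1.66), SAT1 (−1.45), SPX (−1.44), SLC16A6 (−1.37), KLHL24 (−1.35), TMPO-AS1 (1.12), LRRC45 (1.13), CAVIN3 (1.19), GAS6-AS1 (1.35) and AL133346.1 (1.65). With the replicate block nested in the Doxy state 105 genes passed over all genes, among them 36 of those named here, and the cause was not tested.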

How the results depend on the processing

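The oxygen response without Doxy (4360 genes as reported) gave between 3402 and 5628 genes with other size factors, without a filter on low counts, with at least 10 counts in all 12 libraries, with DESeq2, in the 6 libraries alone, with the replicate block in those 6, and with an offset for GC content with or without the block. It gave 1944 with the replicate block nested in the Doxy state over all 12 libraries, 1975 at an adjusted p under 0.01 and 451 at a change of at least 2-fold, and between 2359 and 4232 when 1 library was left out. The response with Doxy (341) gave 605 with DESeq2, 1201 with the GC offset, 125 in its 6 libraries alone, 108 with the nested replicate block, 12 with the replicate block in those 6, 136 with the GC offset and that replicate block, 181 at an adjusted p under 0.01 and 92 at a change of at least 2-fold, and between 191 and 427 without 1 library. The difference between both responses (1231) gave 672 without a filter on low counts, 105 with the nested replicate block, 2985 with the GC offset, 382 at an adjusted p under 0.01 and 186 at a change of at least 2-fold, and between 521 and 2246 without 1 library. The cause was not tested, except that a stricter threshold passes fewer genes by construction. The share of calls that were higher changed from 80.9% to 66.9% with DESeq2, 69.9% with the GC offset and 92.8% in the 6 libraries alone for the response with Doxy, and from 44.0% to 21.0% with the nested replicate block for the difference. NDUFB7 reversed with the GC offset and the replicate block, at −0.00389 over all 12 libraries and −0.00562 over 6. Of 196 named genes called without Doxy, the nested replicate block kept 155 and the replicate block in the 6 libraries 193, which added 6. These 9 changed calls, given in the report except that of KRT7, occurred also in the 6 libraries without the block. The GC offset with the block in 6 libraries gave, higher and lower, 0 and 7 antigen presentation, 2 and 14 lysosomal, 10 and 9 Fe-S protein and 6 and 4 TCA cycle genes. Genes with few counts, FDX2 among them, were not tested at this depth.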
